A study of Rattus norvegicus with 60 samples.

Results

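CA1 tissue of aged rats was compared between 4 arrays labelled impaired and 4 arrays labelled intact, which were 8 of the 60 Illumina rat bead arrays of the series. The arrays were chosen by their titles, as the CA1 samples of the impaired and intact age groups. All rats were F344BN, the first-generation hybrid of Fischer 344 and Brown Norway rats, and both groups were 24 months old. The only other CA1 group held 4 arrays of adult rats of 12 months. It did not enter the comparison and is quoted as a level, because replicate 4 of the adults detected 22.2% of probes where the other CA1 arrays detected 40.8% to 45.4%.

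The series compared hippocampal expression between adult and aged rats in CA1, CA3, the dentate gyrus and whole hippocampus. What test or score made a rat intact or impaired is not stated in the labels. They gave no treatment or surgery, and did not tie the samples to separate animals. The p-values therefore measure only the spread between these samples, which may be technical.

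CA1 is the output field of the hippocampus proper. Its pyramidal neurons receive the Schaffer collaterals of CA3 and project to the subiculum, and synaptic plasticity at these inputs is a standard cellular model of spatial memory. The tissue also holds interneurons, astrocytes, oligodendrocytes, microglia and vessels, and it lies next to the lateral ventricle with its ependyma and choroid plexus and under the meninges of the hippocampal fissure. In such bulk samples, fewer cells of a type and less RNA per cell cannot be told apart.

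The labelled tissue was checked against genes that mark the subregions. Over the 24 aged arrays of CA1, CA3 and dentate gyrus, 9 of 10 measured CA1 markers had their highest mean in CA1. Wfs1, an endoplasmic reticulum protein that marks CA1 pyramidal cells, averaged 9.98 in log2 intensity on the 8 CA1 arrays (9.65 to 10.29), 6.82 in CA3 and 5.57 in the dentate gyrus. Of 13 CA3 markers measured there 7 were highest in CA3 and 2 in CA1, and of 13 dentate granule markers 10 were highest in the dentate gyrus and 1 in CA1. The exception among the CA1 markers was Htr1a, the serotonin 1A receptor, at 6.00 in CA1 and 7.86 in the dentate gyrus. All CA1 arrays shared 1 slide and no other region was on it, so differences between regions and between slides cannot be told apart.

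Between 40.8% and 44.6% of probes were detected on the 8 arrays, with means of 42.7% ± 0.442 for impaired and 42.3% ± 1.67 for intact arrays (SD, n = 4 each; exact permutation test, two-sided, p = 0.714). The median raw signal was higher on every impaired array. It was 94.8, 98.4, 96.3 and 87.6 on intact replicates 1 to 4 and 114, 111, 102 and 128 on impaired replicates 1 to 4 (exact permutation test, two-sided, p = 0.0286, the smallest that 70 splits allow). Impaired arrays lay in sections A to D of the slide and intact arrays in sections E to H, so section and group cannot be told apart. Normalized log2 intensities correlated between pairs of these arrays at 0.968 to 0.994 over probes. Impaired replicate 4 and intact replicate 4 correlated least with the other 7 arrays, at a mean of 0.979 and 0.984, and lay at opposite ends of the first principal component. That component took 40.2% of the variance, with impaired replicate 4 at 29.2 and intact replicate 4 at -16.6. Some results are therefore also given without these replicates, and list medians with their values when single arrays were left out.

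**Figure D1:**
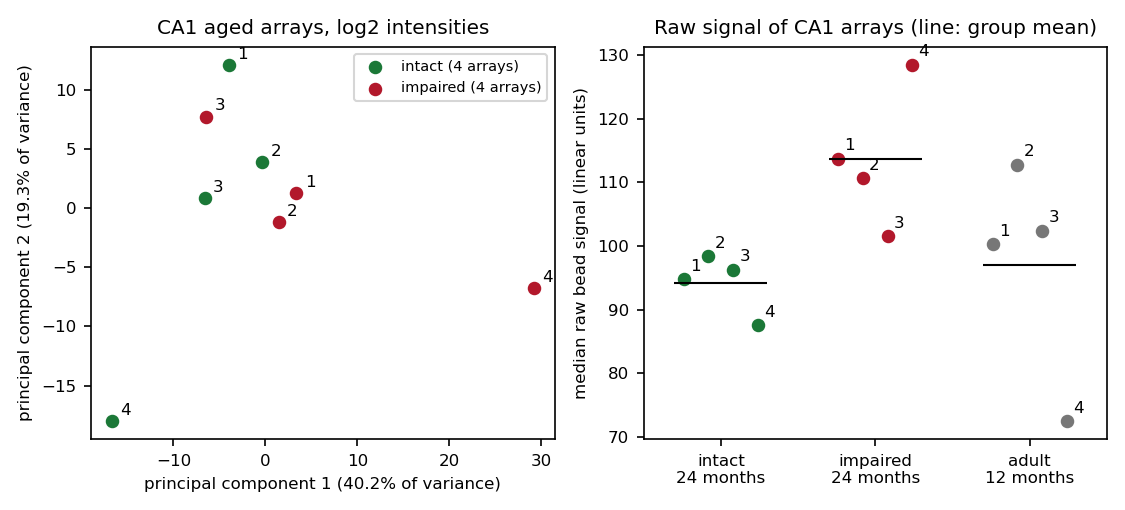
Left, the 8 aged CA1 arrays on the first 2 principal components of their log2 intensities (40.2% and 19.3% of the variance), numbered by replicate, with both replicates 4 apart from the other 6 arrays. Right, the median raw bead signal of each CA1 array in linear units with the group mean as a line, where all 4 impaired arrays lie above all 4 intact arrays.

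No probe passed the threshold between impaired and intact CA1. Of 9608 probes tested out of 22523 on the array, 0 (0%) had an adjusted p under 0.05 by limma, and the smallest adjusted p was 0.710. At an unadjusted p under 0.05 there were 668 probes (6.95%), with 390 higher in impaired arrays (4.06%) and 278 lower (2.89%). Of all probes tested, 4557 (47.4%) were above 0. The groups did not overlap at 314 probes (3.27%), 164 of them higher (1.71%) and 150 lower (1.56%). The median absolute difference was 0.10 and the median standard error 0.12 on the log2 scale, and only 1 probe differed by more than 1. The split of the 668 probes depended on the scaling. It was 650 higher and 78 lower with median centring in place of quantile normalization, and 624 higher and 63 lower in the authors' processed values. In the text below, each gene's difference is impaired minus intact in log2 intensity with its standard error, arrays are listed in the order of replicates 1 to 4, and no difference named had an adjusted p under 0.05 over all probes with all 8 arrays. Counts of list members at an unadjusted p are to be read against the 4.06% and 2.89% of all probes, and list members whose groups do not overlap against the 1.71% and 1.56%.

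**Figure D2:**
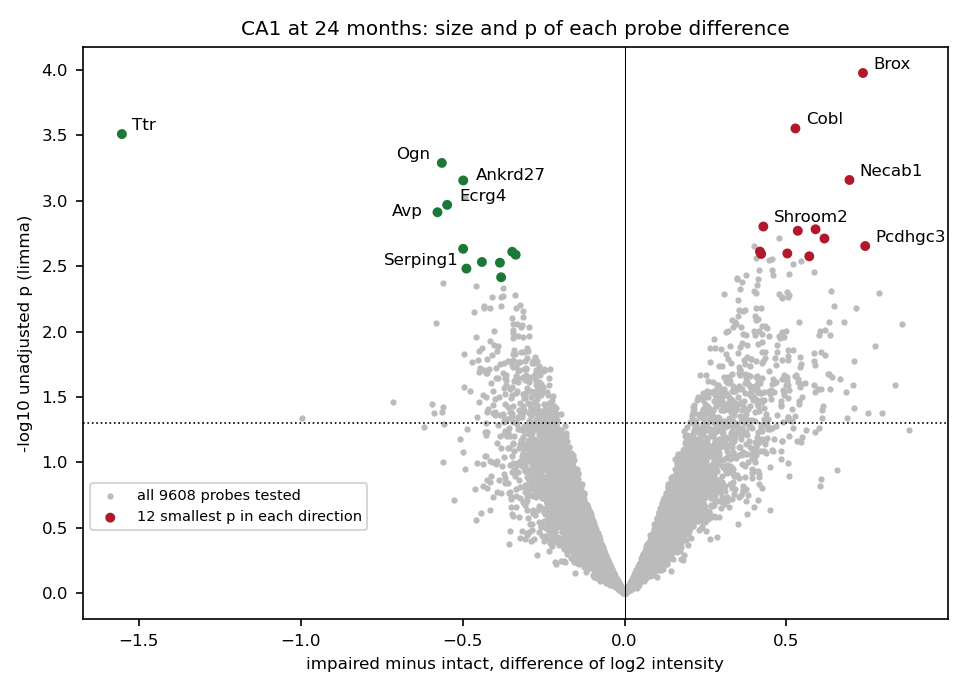
Each of the 9608 probes tested in CA1, with the impaired minus intact difference of log2 intensity on the x axis and -log10 of limma's unadjusted p on the y axis. Coloured points are the 12 genes of smallest p in each direction (red higher, green lower in impaired), the dotted line marks an unadjusted p of 0.05, and Ttr at -1.55 lies apart from all other probes.

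The largest difference in CA1 was that of Ttr, which encodes transthyretin, the thyroid hormone and retinol carrier made in bulk by the choroid plexus. Its log2 intensity was 8.09, 8.41, 7.78 and 7.43 on the intact arrays and 5.77, 6.23, 7.36 and 6.14 on the impaired arrays. All impaired arrays lay below all intact arrays, with impaired replicate 3 closest to them. The difference was -1.55 ± 0.30, which is 2.93-fold lower in impaired CA1 (limma, unadjusted p = 0.000309, adjusted p = 0.710). When 1 array was left out, the difference ran from -1.88 to -1.35. Without impaired replicate 3, the impaired array closest to the intact ones, it was -1.88 with an adjusted p of 0.0455 by limma. Ttr was then the only probe called. The adult arrays lay at 10.09, 6.70, 7.01 and 8.57, and impaired replicates 1, 2 and 4 lay below all of them. Impaired minus intact for Ttr was -0.99 in CA3, -1.11 in the dentate gyrus and -0.29 in whole hippocampus.

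Of 16 choroid plexus genes on the array 3 were measured, and the other 13 were not detected on enough arrays to be tested. Besides Ttr these were Kcnj13 and Slc4a5. Kcnj13, an inward rectifier potassium channel of that epithelium, differed by -0.38 ± 0.22, with intact arrays at 6.15, 6.38, 6.42 and 6.98 and impaired arrays at 5.91, 6.42, 6.48 and 5.60. Slc4a5, a bicarbonate transporter of the same epithelium, differed by -0.02 ± 0.14, and its direction turned under several settings, among them the processed values (0.13) and median centring (0.05). Both overlapped between the groups. The mean log2 intensity over the 3 genes ran from 6.79 to 7.01 in intact and from 5.82 to 6.68 in impaired arrays, without overlap. This mean includes Ttr, the largest difference in these same data, so it is no separate evidence beside Ttr. Such means did not overlap in 2 of the 42 lists, beside 3.27% of single probes. The median difference of -0.38 over the 3 genes became -0.21 without either replicate 4 and -0.04 without both. The part of choroid plexus tissue in the Ttr difference was not tested.

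Markers of the ependyma, the ciliated lining of the ventricle, had smaller differences. All 4 measured genes were lower in impaired arrays, with a median of -0.12 beside -0.01 over all probes tested, and 0 of them passed an unadjusted p of 0.05. The list's mean ran from 8.66 to 8.78 in intact and from 8.40 to 8.64 in impaired arrays, without overlap. Ependyma and choroid plexus were the only 2 of the 42 lists whose means did not overlap, beside 3.27% of single probes. The choroid plexus mean holds Ttr, and its other measured genes overlapped, so the lists are not read as agreeing. Rarres2, which encodes the secreted protein chemerin, differed by -0.28 ± 0.14. Its intact arrays read 9.33, 9.62, 9.63 and 9.62 and its impaired arrays 9.52, 9.27, 9.36 and 8.91, and the groups overlapped only through intact replicate 1, which lay below impaired replicates 1 and 3.

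Genes of the meninges, fibroblasts and vessel walls also had mostly lower values in impaired arrays. Of 11 measured genes of meninges and fibroblasts, 8 were lower in impaired arrays and 4 of these passed an unadjusted p of 0.05, with a list median of -0.16. Ogn encodes osteoglycin, a small leucine-rich proteoglycan of connective tissue. It read 7.02, 6.83, 7.23 and 7.31 in intact and 6.67, 6.49, 6.47 and 6.51 in impaired CA1, with no overlap and a difference of -0.56 ± 0.12 (limma, unadjusted p = 0.000514). Adult replicates 1 to 3 lay at 6.26, 6.36 and 6.88. The adult arrays at 6.26 and 6.36 lay below all impaired arrays, and the one at 6.88 lay within the intact range. Ptgds, the prostaglandin D2 synthase of leptomeninges and glia, was among the brightest genes named. It read 13.28, 13.18, 13.21 and 13.06 in intact and 12.98, 12.82, 13.02 and 12.71 in impaired arrays, also without overlap (-0.30 ± 0.10). Igf2, a growth factor of meninges and choroid plexus (-0.34 ± 0.13), and Col1a2, a chain of fibrillar collagen (-0.35 ± 0.14), overlapped between the groups. Without intact replicate 1 the list median was -0.27 and without impaired replicate 1 it was -0.25. It was nearer 0 without intact replicate 3 or impaired replicate 4 (-0.12 each) and without both replicates 4 (-0.10). Median centring gave -0.09 and the processed values -0.08.

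Tagln, an actin-binding protein of smooth muscle, read 7.20, 7.39, 7.43 and 7.25 in intact and 7.20, 6.63, 6.65 and 6.82 in impaired arrays (-0.49 ± 0.13). The closest pair, replicate 1 of each group, was level to the second decimal, and the other 3 impaired arrays lay at 6.82 or below. Over 6 measured pericyte and smooth muscle genes 5 were lower, with a median of -0.14 (-0.02 in the processed values). Of 13 endothelial genes 9 were lower and 0 passed an unadjusted p of 0.05. Their median of -0.09 was -0.14 without impaired replicate 1, -0.04 without impaired replicate 3 or 4 and -0.06 without intact replicate 4. Haemoglobin transcripts gave no steady direction. Hbb differed by -0.10 ± 0.18 and Hba-a2, whose transcript is nearly identical to that of its neighbouring copy, by -0.08 ± 0.16, and both turned to 0.17 without both replicates 4.

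**Figure D3:**
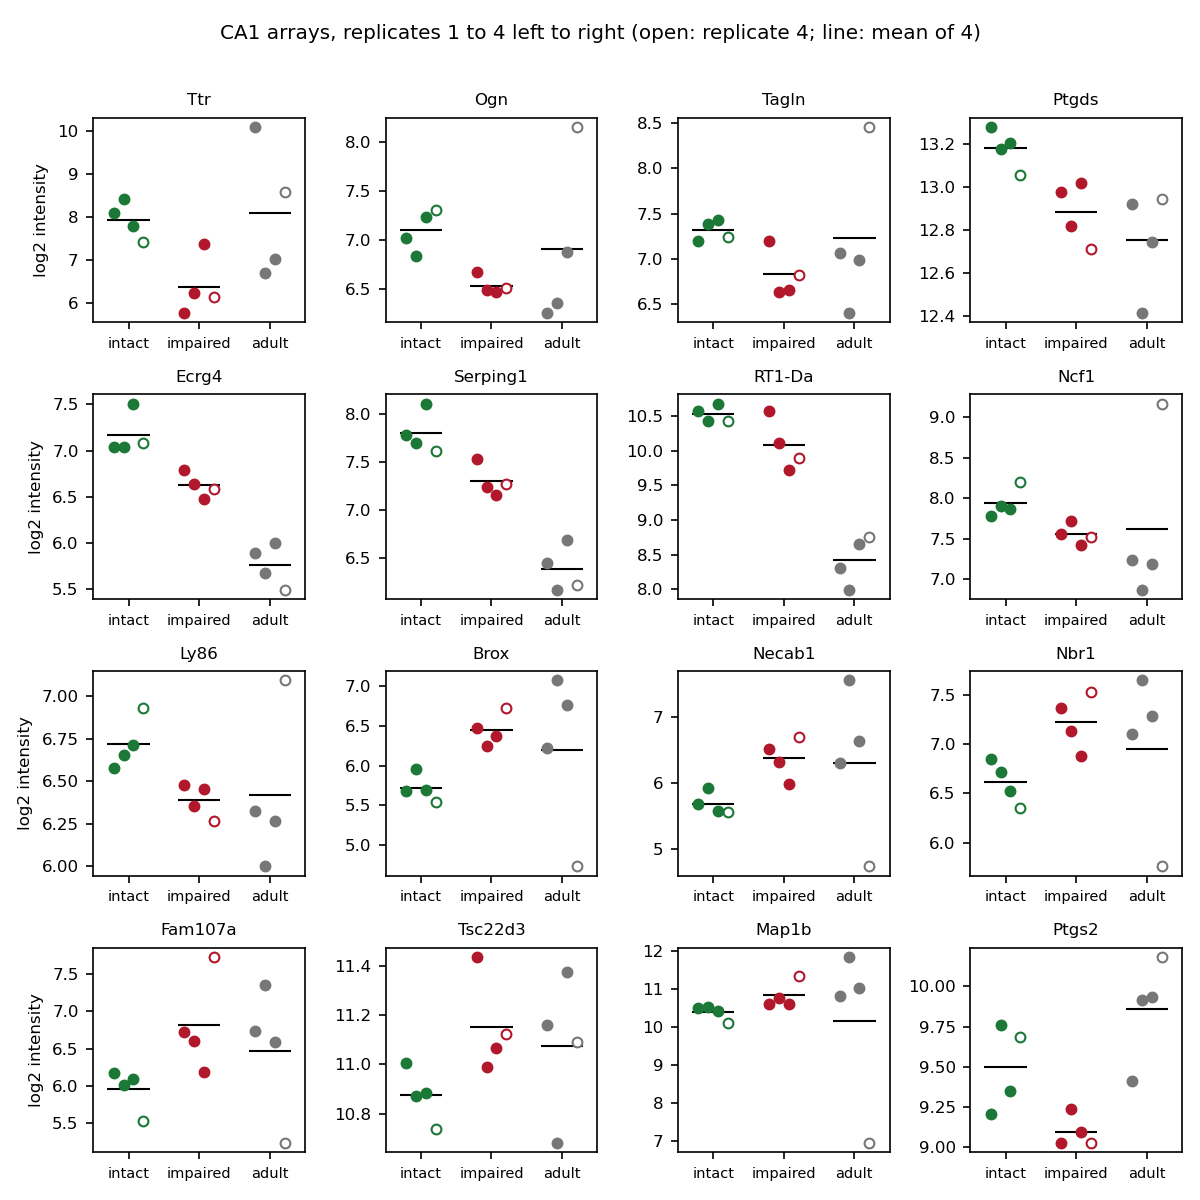
Log2 intensity of 16 genes on each CA1 array, in replicate order from left to right, with replicate 4 as an open circle and a line at the mean of 4. Ttr, Ogn, Ecrg4 and Serping1 lie lower on every impaired than on every intact array, Brox, Necab1 and Nbr1 lie higher, and adult replicate 4 often stands far from the other adults.

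Most immune genes had lower values in impaired than in intact CA1, with 0 past the threshold, and several impaired levels lay between those of adults and intact rats. The MHC class II genes encode the chains that present peptides to helper T cells, and all 6 measured genes were lower in impaired arrays (median -0.30; -0.01 over all probes tested). RT1-Da, a class II alpha chain, read 10.57, 10.43, 10.68 and 10.43 in intact and 10.58, 10.12, 9.73 and 9.90 in impaired CA1, with a difference of -0.45 ± 0.16 (limma, unadjusted p = 0.0191). RT1-Ba, another alpha chain, read 8.81, 8.79, 9.12 and 8.83 in intact and 9.00, 8.43, 8.19 and 8.52 in impaired arrays (-0.35 ± 0.16). In both genes impaired replicate 1 lay among the intact arrays and the other 3 impaired arrays lay below all of them. Adult replicates 1 to 3 were far lower, at 7.99 to 8.65 for RT1-Da and 6.06 to 6.84 for RT1-Ba.

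The other class II genes had smaller differences, each with overlap. Those were -0.36 ± 0.17 for the beta chain RT1-Db1, -0.25 ± 0.17 for the invariant chain Cd74, -0.21 ± 0.12 for RT1-DMb and -0.13 ± 0.09 for RT1-DMa, which together load peptide onto class II molecules. Probes for rat MHC genes can also bind transcripts of related copies, so single members are uncertain. The list median was -0.25 in CA3, -0.15 in the dentate gyrus and 0.01 in whole hippocampus. In CA1 it was -0.46 without impaired replicate 1, -0.25 without both replicates 4 and -0.22 in the processed values. Of 16 measured genes of MHC class I and peptide loading 13 were lower, and the median of -0.09 was -0.16 without impaired replicate 1, -0.03 without impaired replicate 3 and -0.05 without impaired replicate 4. Tapbpl, a peptide editor of class I that was not on the list, stood at -0.44 ± 0.12 and was lower on every impaired array.

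In the complement system, which tags cells and synapses for removal, 13 of 14 measured genes were lower in impaired arrays and 2 passed an unadjusted p of 0.05. The median of -0.15 was -0.085 without intact replicate 3 and -0.235 without impaired replicate 1. Serping1, the C1 inhibitor, read 7.78, 7.70, 8.11 and 7.62 in intact and 7.54, 7.24, 7.16 and 7.27 in impaired CA1. These groups did not overlap (-0.50 ± 0.13), and adult replicates 1 to 3 were lower still at 6.45, 6.18 and 6.69. Cfd, the serine protease that starts the alternative pathway, differed by -0.29 ± 0.13 with overlap. Complement medians were -0.12 in CA3, 0.18 in the dentate gyrus and 0.16 in whole hippocampus.

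Among 18 measured microglial genes, 13 were lower in impaired arrays and 4 of these passed an unadjusted p of 0.05, while 5 were higher and 1 passed. Their median of -0.12 depended on single arrays. It was -0.045 without intact replicate 4, -0.065 without impaired replicate 3, -0.069 without intact replicate 3, -0.187 without intact replicate 1 and -0.201 without intact replicate 2. Ncf1, a cytosolic component of the NADPH oxidase of phagocytes, read 7.78, 7.90, 7.87 and 8.20 in intact and 7.57, 7.72, 7.42 and 7.53 in impaired CA1 (-0.38 ± 0.11). Ly86, a secreted partner of a Toll-like receptor homologue, read 6.58, 6.65, 6.71 and 6.93 against 6.48, 6.36, 6.46 and 6.27 (-0.33 ± 0.10). Both lay lower on every impaired array. Cd68, a lysosomal glycoprotein of phagocytes, also did not overlap (-0.44 ± 0.13), but was detected on 3 of 4 intact and 1 of 4 impaired arrays and so lay near the background. Fcgr3a, an activating Fc receptor, differed by -0.31 ± 0.12 with overlap. The gene that passed with higher values was Tmem119, a marker of resident microglia (0.24 ± 0.11). It was detected on 1 of 4 intact and 4 of 4 impaired arrays, so that it met the detection filter through the impaired arrays and lay near the background on the intact ones. The microglial median was -0.16 in CA3, 0.10 in the dentate gyrus and 0.14 in whole hippocampus.

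Genes of astrocyte reactivity were lower in 11 of 13 cases, with a median of -0.16, and 3 passed an unadjusted p of 0.05. Ecrg4, a secreted peptide precursor of choroid plexus and other tissues, read 7.04, 7.04, 7.51 and 7.09 in intact and 6.79, 6.64, 6.47 and 6.59 in impaired CA1, with no overlap (-0.55 ± 0.13, limma, unadjusted p = 0.00108). Adult replicates 1 to 3 lay below both groups at 5.89, 5.68 and 6.00. Hspb1, a small heat shock protein of reactive glia, differed by -0.37 ± 0.14 and the membrane protein Tm4sf1 by -0.28 ± 0.11, each with overlap. Gfap, the intermediate filament that defines reactive astrocytes, was level at -0.04 ± 0.11. Genes that mark astrocytes in general had a median of 0.05 (0.014 to 0.106 when 1 array was left out), with 13 of 19 higher and 0 at an unadjusted p under 0.05, and the water channel Aqp4 stood at 0.55 ± 0.27.

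Of 26 measured genes of oligodendrocytes and myelin, 16 were lower in impaired arrays, 3 of them at an unadjusted p under 0.05. Their median of -0.06 became -0.21 without both replicates 4, -0.16 without intact replicate 4, -0.03 without impaired replicate 3 and 0.005 without intact replicate 1. Pllp, the myelin proteolipid plasmolipin, read 9.02, 8.75, 8.84 and 8.71 in intact and 8.70, 8.59, 8.33 and 8.11 in impaired arrays (-0.39 ± 0.14). Those groups did not overlap, though the closest arrays were 8.71 and 8.70. Ugt8, which makes the galactolipids of myelin, differed by -0.28 ± 0.12 and Klk6, a serine protease of oligodendrocytes, by -0.26 ± 0.11, both with overlap.

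Most neuronal lists had medians above 0 in CA1, with few members at an unadjusted p under 0.05. Of the 10 measured CA1 markers 8 were higher in impaired arrays and 3 passed (median 0.12, and 0.07 without impaired replicate 3). Man1a1, a Golgi mannosidase, read 7.53, 7.63, 7.57 and 7.47 in intact and 7.68, 7.94, 7.86 and 8.34 in impaired CA1, without overlap (0.40 ± 0.13). Htr1a (0.42 ± 0.14), the list member with its highest mean in the dentate gyrus, was detected on 2 of 4 intact arrays and overlapped between the groups. Mpped1, a metallophosphoesterase of pyramidal neurons (0.34 ± 0.15), overlapped too. Wfs1 differed by 0.09 ± 0.14, and by -0.09 without both replicates 4. Markers of CA3 (median -0.03, with 4 of 10 higher) and of dentate granule neurons (0.11, with 5 of 6 higher) had 0 genes at an unadjusted p under 0.05. The dentate median was 0.04 without intact replicate 1 and 0.06 without impaired replicate 4. The CA3 median ran from -0.07 to -0.02 when 1 array was left out and turned to 0.03 in the processed values and 0.02 with median centring.

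Synaptic vesicle genes had the highest list median, at 0.14 over 34 measured genes, of which 24 were higher and 4 of these passed an unadjusted p of 0.05. The median was 0.06 without impaired replicate 4, the array at one end of the first principal component. Snap91, a clathrin adaptor of vesicle retrieval, read 10.26, 10.43, 10.25 and 10.26 in intact and 10.67, 10.62, 10.26 and 11.01 in impaired arrays (0.34 ± 0.14). Vamp1, a vesicle SNARE, differed by 0.45 ± 0.18, the endocytic protein Amph by 0.31 ± 0.13 and the synaptotagmin Syt11, detected on 2 of 4 intact arrays, by 0.48 ± 0.20. Each of these 4 genes was highest on impaired replicate 4 and overlapped between the groups.

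Postsynaptic genes were split. Of 27 measured glutamate receptor and scaffold genes 18 were higher, with a median of 0.05 that turned to -0.02 without impaired replicate 4 and was 0.09 without impaired replicate 1. Dlg1, a scaffold of glutamate receptors, read 8.20, 8.24, 8.13 and 7.94 in intact and 8.53, 8.49, 8.28 and 8.62 in impaired CA1, without overlap (0.35 ± 0.11). Shank1, a scaffold of the postsynaptic density, had the opposite direction at -0.35 ± 0.15, with overlap. Calcium signalling genes had a median of 0.01 over 46 genes, which ran from -0.01 without impaired replicate 4 to 0.06 without impaired replicate 1, and the calcium channel subunit Cacnb2 stood at 0.27 ± 0.12. Of 27 potassium channel genes 2 passed an unadjusted p of 0.05, both higher. These were Kcnab1, an accessory subunit (0.47 ± 0.21), and Kcnj9, a G protein-gated channel (0.26 ± 0.11). Of 31 interneuron and GABA genes 0 passed (median 0.05, from -0.02 without intact replicate 3 to 0.09 without impaired replicate 1), and Pvalb, the calcium buffer parvalbumin of basket cells, read 8.77, 8.73, 8.86 and 8.86 in intact and 8.64, 8.67, 8.65 and 8.54 in impaired CA1 (-0.18 ± 0.09). Pvalb was lower on every impaired array by a small amount.

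Immediate early genes, which neurons switch on after activity, were lower in 20 of 24 cases. Their median of -0.13 ran from -0.23 without intact replicate 1 to -0.07 without intact replicate 3, and became -0.03 without both replicates 4 and 0.01 with array weights. Ptgs2, the inducible cyclooxygenase, read 9.21, 9.76, 9.35 and 9.68 in intact and 9.03, 9.24, 9.09 and 9.03 in impaired CA1 (-0.40 ± 0.13). Only impaired replicate 2 reached above the lowest intact array. Ccn1, a secreted matrix protein, differed by -0.996 ± 0.44, and its spread came from intact replicate 3 at 8.40 beside 5.79 to 6.76 on the other intact arrays. Nptx2, a secreted organizer of excitatory synapses, was higher at 0.27 ± 0.12. Impaired minus intact over these genes had a median of -0.04 in CA3, -0.08 in the dentate gyrus and 0.22 in whole hippocampus.

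Genes that glucocorticoids induce had a median of 0.11, with 12 of 17 higher and 2 of these at an unadjusted p under 0.05. Fam107a, an actin-associated protein induced by stress, read 6.18, 6.02, 6.09 and 5.54 in intact and 6.72, 6.61, 6.19 and 7.73 in impaired arrays. The groups did not overlap, and the difference of 0.86 ± 0.27 was 0.55 without impaired replicate 4 and 0.41 without both replicates 4. Tsc22d3, the glucocorticoid-induced leucine zipper, read 11.00, 10.87, 10.88 and 10.74 in intact and 11.43, 10.99, 11.06 and 11.12 in impaired CA1 (0.28 ± 0.12), and Fkbp5, a co-chaperone of the glucocorticoid receptor, stood at 0.26 ± 0.14. The list median was 0.09 in CA3, 0.10 in the dentate gyrus and 0.11 in whole hippocampus. In CA1 it was 0.058 without impaired replicate 1 and 0.13 without both replicates 4.

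Of 19 neurotrophin and growth factor genes 12 were lower, with a median of -0.09. The median was -0.02 without replicate 2 of either group, -0.03 without impaired replicate 4, -0.04 without intact replicate 3 and 0.03 in the processed values. Of the 19 genes, 2 were higher on every impaired array. Igfbp3, which binds insulin-like growth factors, read 5.87, 5.33, 5.81 and 6.03 in intact and 6.25, 6.44, 6.20 and 6.15 in impaired CA1 (0.50 ± 0.14). Fgfr2, a fibroblast growth factor receptor, differed by 0.43 ± 0.14. Fgfrl1, a receptor of that family without a kinase domain that was not on the list, read 7.90, 7.86, 8.06 and 7.94 in intact and 7.68, 7.69, 7.44 and 7.42 in impaired arrays, lower on every one (-0.38 ± 0.10).

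Lists of housekeeping genes had small medians, beside -0.01 over all probes. Of 66 cytosolic ribosomal protein genes 54 were lower, with a median of -0.08 that became -0.02 without impaired replicate 4 and -0.14 without impaired replicate 1. A single ribosomal gene passed an unadjusted p of 0.05, and in the opposite direction. That was Rpl5 at 0.36 ± 0.10, higher on every impaired array. Its probe was dim for this family, at 6.76 to 6.97 on intact arrays where the list's mean ran from 12.09 to 12.19. Of 56 oxidative phosphorylation genes 41 were lower and 0 passed (median -0.06), and of 29 proteasome genes 24 were lower and 1 passed, the regulatory subunit Psmd1 (-0.22 ± 0.09). Without impaired replicate 4 both medians were -0.02, and the proteasome median was -0.05 without intact replicate 1. Splicing and RNA-binding genes were higher in 27 of 37 cases (median 0.07, and 0.04 without impaired replicate 4), with the splicing factor Srsf3 higher on every impaired array (0.22 ± 0.09) and Tardbp, the RNA-binding protein TDP-43, at 0.26 ± 0.11. Lower on every impaired array were the splicing repressor Ptbp1 (-0.21 ± 0.10), the complex I subunit Ndufa12 (-0.13 ± 0.10) and the proteasome subunit Psmb2 (-0.14 ± 0.09), which were named after their values were seen.

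Of 37 cytoskeletal and transport genes 26 were higher (median 0.03, from -0.001 to 0.078 when 1 array was left out), and 3 passed an unadjusted p of 0.05. These were the actin monomer binder Pfn2 (0.27 ± 0.11) and the kinesin motors Kif5b (0.31 ± 0.13) and Kif5c (0.31 ± 0.11). Among 25 genes of amyloid, tau and synuclein 14 were higher, with a median of 0.02 that ran from -0.02 to 0.06 when 1 array was left out. Map1b of that list, a microtubule-associated protein of growing axons, read 10.50, 10.53, 10.44 and 10.12 in intact and 10.61, 10.79, 10.62 and 11.35 in impaired CA1, without overlap (0.45 ± 0.16). A second probe of Map1b had the opposite direction at -0.24 ± 0.18. Map4, a microtubule-associated protein of the same list that was named after its values were seen, was lower on every impaired array (-0.17 ± 0.09). In the cholesterol list, Srebf2, the factor that drives sterol synthesis genes, stood at 0.77 ± 0.26 and the synthesis enzyme Cyp51 at -0.34 ± 0.12, with a median of -0.0034 over 23 genes that ran from -0.05 to 0.04 when 1 array was left out. The lists of lysosomal genes (median -0.01, and 0.08 in the processed values), heat shock proteins (-0.04), antioxidants (-0.03, and 0.00 in the processed values) and interferon response (-0.11, and -0.06 without impaired replicate 4) had at most 1 gene a direction at an unadjusted p under 0.05. These were Cd68, Dnajb4 (0.43 ± 0.15), Hspb1 and the glutathione transferase Gsta4 (-0.42 ± 0.18).

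**Figure D4:**
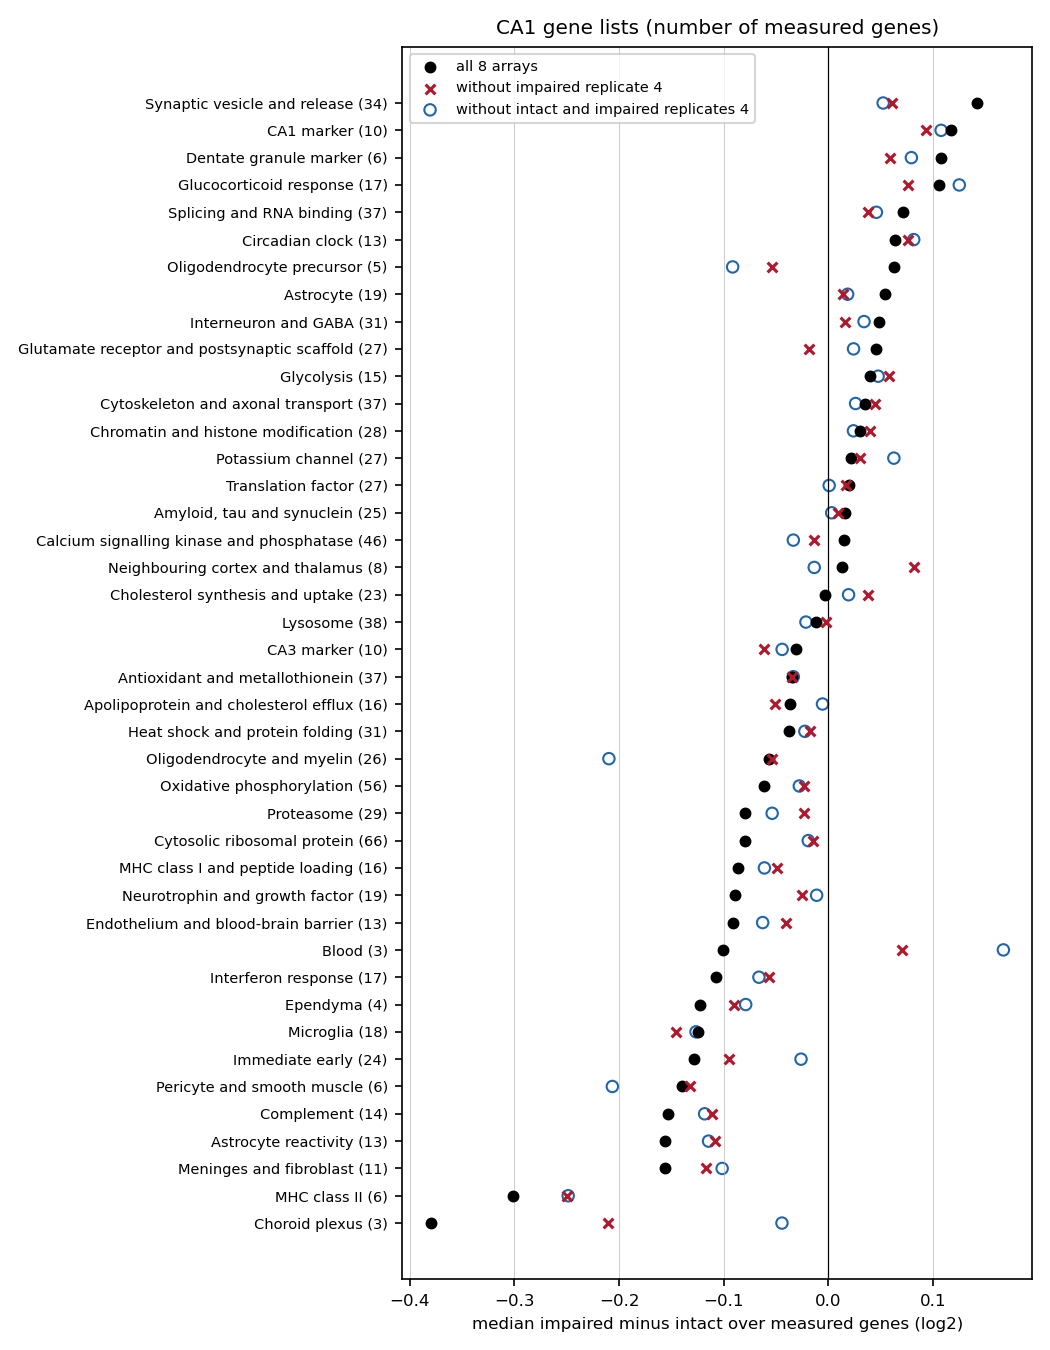
Median impaired minus intact difference in log2 intensity over the measured genes of each of the 42 lists in CA1, with the number of measured genes in parentheses. Filled circles are all 8 arrays, crosses leave out impaired replicate 4 and open circles leave out both replicates 4; 24 medians lie below 0 and 18 above with all 8 arrays, and synaptic vesicle genes move from 0.14 to 0.06 without impaired replicate 4.

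The 12 genes of smallest p over all probes that were higher in impaired CA1 included several near the background in intact arrays. Brox, which carries a Bro1 domain and acts in membrane repair, had the smallest p. It read 5.68, 5.95, 5.69 and 5.54 in intact and 6.48, 6.24, 6.37 and 6.73 in impaired arrays, was detected on 1 of 4 and 4 of 4 of them, and differed by 0.74 ± 0.13 (limma, unadjusted p = 0.000105, adjusted p = 0.710). Cobl, an actin nucleator of dendrites, read 5.85, 5.88, 5.88 and 5.60 against 6.44, 6.20, 6.38 and 6.30 (0.53 ± 0.10). Necab1, a neuronal calcium-binding protein, read 5.68, 5.92, 5.58 and 5.56 against 5.99 to 6.70 (0.69 ± 0.15). Brox, Necab1 and Mtmr3, a phosphoinositide phosphatase (0.53 ± 0.13), were each detected on 1 of 4 intact and 4 of 4 impaired arrays. They met the detection filter through the impaired arrays, and their differences rest on intact signals mostly not above background. In Brox, Cobl and Necab1 every impaired array lay above every intact array, and so did adult replicates 1 to 3, at 6.13 to 7.56.

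Mtmr3 did not overlap between the groups. Nbr1, a receptor for selective autophagy, read 6.85, 6.72, 6.52 and 6.35 in intact and 7.36, 7.13, 6.88 and 7.53 in impaired CA1 (0.62 ± 0.15). Tomm34, a chaperone partner of mitochondrial import (0.42 ± 0.11), Timp2, an inhibitor of matrix metalloproteinases (0.50 ± 0.13), and Pik3cb, a catalytic subunit of phosphoinositide 3-kinase (0.42 ± 0.11), also did not overlap. Nor did the membrane protein Tmem255a (0.59 ± 0.14). Only Ptgr2, a prostaglandin reductase detected on 2 of 4 intact arrays, overlapped among the 12 of smallest p (0.57 ± 0.15).

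Both remaining genes of that set were detected on every impaired and on no intact array, so they met the detection filter only through the impaired arrays. Shroom2, an actin-binding protein, read 5.42 to 5.71 in intact and 5.84 to 6.03 in impaired arrays, at least 1.14-fold higher. Pcdhgc3, an adhesion protein of the gamma protocadherins that share their constant exons, read 5.21 to 5.63 in intact and 5.76 to 6.75 in impaired arrays, at least 1.37-fold higher. These bounds set the impaired mean against the lowest signal among detected probes of each intact array or the probe's own signal where that was higher.

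Among the 12 genes of smallest p that were lower in impaired CA1, the remaining ones came from varied pathways. Avp, the neuropeptide vasopressin, read 6.40, 5.96, 5.80 and 6.07 in intact and 5.60, 5.60, 5.27 and 5.45 in impaired arrays. It was detected on 4 of 4 intact and 0 of 4 impaired arrays, so it met the detection filter only through the intact arrays. Avp was at least 1.27-fold lower in impaired arrays. Ankrd27, an effector of endosomal Rab proteins, read 6.21, 6.46, 6.37 and 6.40 against 5.80, 5.67, 5.93 and 6.05 (-0.50 ± 0.11). Nubp1, which helps assemble iron-sulfur proteins, read 8.94, 8.86, 8.91 and 8.95 against 8.55, 8.62, 8.66 and 8.45 (-0.35 ± 0.09). Its arrays were close together within each group. Haghl (-0.34 ± 0.09) and Ppp5c, a serine/threonine phosphatase (-0.38 ± 0.11), were also lower on every impaired array.

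Whether the CA1 difference differed from that in the neighbouring subregions was tested in 1 fit of the 24 aged subregion arrays. Against the dentate gyrus, limma called 0 of 9608 probes (0%), with 1554 at an unadjusted p under 0.05 (16.2%). The 3 genes of smallest p for that difference of differences were Thsd7b, a thrombospondin-domain protein, Trappc9, a subunit of a vesicle tethering complex, and Nras, a small GTPase. They stood at 0.45, 0.51 and 0.40 in CA1 and at -0.33, -0.34 and -0.50 in the dentate gyrus. Array weights, which count arrays that stand apart for less, gave 528 calls, 262 of them higher in CA1 and 266 lower. Without impaired replicate 4 of CA1 there were 0 calls and 865 probes at an unadjusted p under 0.05, and without both replicates 4 of CA1 there were 653.

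Against CA3, limma also called 0 probes (0%), with 149 at an unadjusted p under 0.05 (1.55%). Zfp94, a zinc finger protein detected on 1 of 4 intact CA1 arrays, stood at 0.41 in CA1 and -0.15 in CA3, Rbm12b, an RNA-binding protein, at 0.29 and -0.24, and Btf3l7 at -0.21 and 0.43. Each subregion on its own also had 0 calls on these probes, with 561 at an unadjusted p under 0.05 in CA3 (5.84%), 349 in the dentate gyrus (3.63%) and 339 in whole hippocampus (3.53%), which had 9 arrays a group.

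As a description over the 9608 probes, which share genes, probe chemistry and normalization but no array between regions, the CA1 differences correlated with those in CA3 at r = 0.29. With the dentate gyrus the correlation was -0.56 and with whole hippocampus -0.24. Leaving out both replicates 4 of CA1 moved these to 0.42, -0.14 and -0.0044. The slides of CA1, CA3 and dentate gyrus also shared their layout, with impaired arrays in sections A to D and intact arrays in sections E to H. In each subregion section and group therefore cannot be told apart. The labels did not say whether the subregions came from the same rats. Probes are not independent replicates, and no p is given.

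MHC class II, meninges and fibroblast, astrocyte reactivity, complement and microglial genes had medians below 0 in both CA1 and CA3, and all of these but class II were above 0 in the dentate gyrus and in whole hippocampus. Synaptic vesicle genes were at 0.14 in CA1, 0.00 in CA3, -0.26 in the dentate gyrus and -0.14 in whole hippocampus. Glucocorticoid response genes were between 0.09 and 0.11 in all 4 tissues. These medians are levels of difference without a test between tissues, and the subregions shared the same layout of groups over slide sections.

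**Figure D5:**
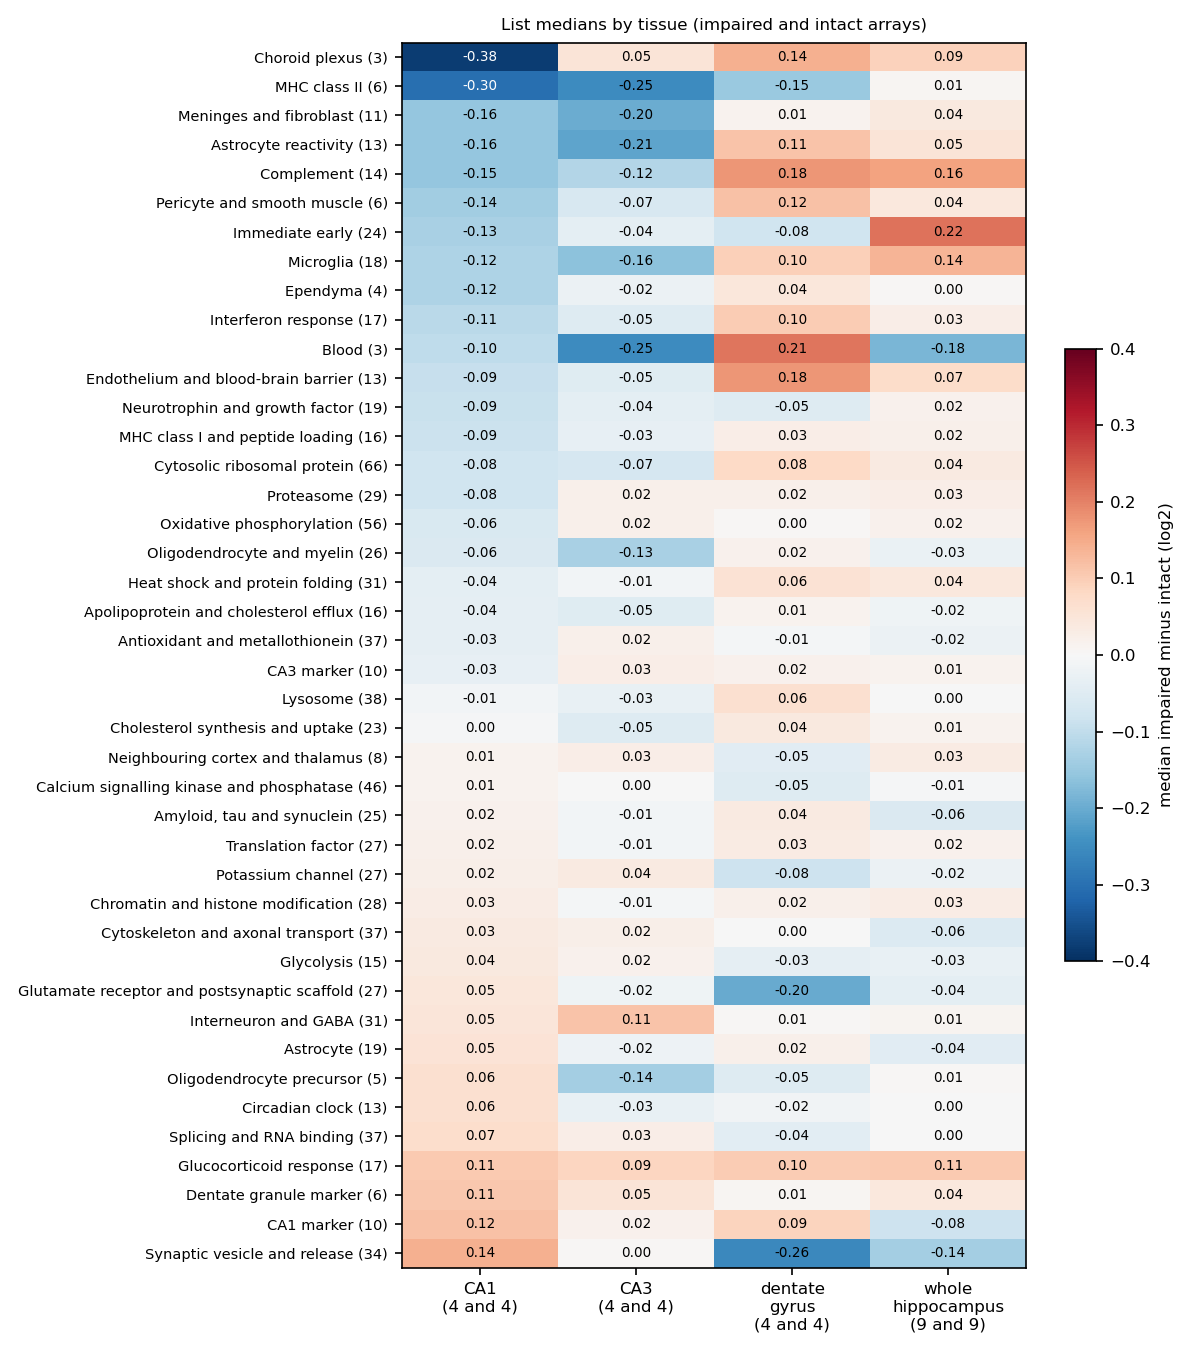
Median impaired minus intact difference in log2 intensity for each of the 42 lists (rows, with the number of genes measured in CA1) in CA1, CA3, dentate gyrus and whole hippocampus, over the same genes, with the numbers of arrays in each group under the tissue. Blue is lower and red higher in impaired tissue; class II genes are blue in all 3 subregions, and synaptic vesicle genes are red in CA1 and blue in the dentate gyrus.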

How the data were processed

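Total RNA was prepared with Trizol and RNeasy columns with DNase treatment, and biotinylated with a TotalPrep kit, per the labels' protocols. In the deposited raw table, the file headers name the mean bead intensity (linear) with its detection p-value on every array for 22523 probes; 3174 further lines held no probe. The deposited processed intensity was a linear function of the raw signal within each array (largest residual 0.00953), with medians of 18.9 to 28.7 on these 8 arrays. What software, scale factor and background lay behind it is not stated in the labels or headers.

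Raw signals were background corrected with an offset of 16, quantile normalized over all 60 arrays and put on log2 with neqc of limma 3.58.1 in R 4.3.3. Probes with a detection p under 0.01 on at least 4 of the 8 arrays were tested, and the 8 arrays were fitted alone with lmFit and eBayes, two-sided, with Benjamini-Hochberg adjustment over all probes tested and a threshold of 0.05. Tests of whether the CA1 difference differed from that in CA3 or the dentate gyrus came from 1 limma fit of the 24 aged subregion arrays. The impaired minus intact differences of CA3 and of the dentate gyrus came from separate fits of 8 aged arrays each, on the same probes. Whole hippocampus was fitted over its 18 aged arrays with the slide as a covariate. Detection and raw signal were compared by exact permutation test. Tables were made with pandas 2.3.3 and numpy 2.4.6 under Python 3.11.15, and figures with matplotlib 3.10.9.

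Symbols came from the files, brought up to date with a RefSeq gene table of the rat: 10164 probes already had a current symbol, 1665 took theirs through a gene number, 5050 through a synonym and 7 through the synonyms of the probe. The symbol of 5520 was left unchanged, and 117 lacked one. The brightest probe stood for a gene. No genome was used, so no coordinates are given. The number of arrays limits the precision.

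The comparison, the 42 lists and the rules were chosen with earlier results of these data known. Named were the 12 genes of smallest p in each direction, up to 2 of smallest p per list, and 3 for each difference between regions, except LOC and RGD names. Further list members were named after their values were seen, among them Gfap, Wfs1, the remaining class II genes and those completing a count. A few genes named by the rule are left undescribed. A pairing of arrays by replicate number was not seen, as deviations of equal-numbered arrays correlated at -0.05, -0.18, 0.00 and -0.19. Unequal-numbered arrays ran from -0.24 to 0.32, so these values cannot exclude a pairing. Alternatives changed the background correction, normalization, detection filter, samples, weights, variance prior and replicate block, and left out each array. Both replicates 4 were left out together as an alternative chosen after seeing the data.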

Additional observations from a re-analysis of the deposited data

Results flagged for a closer look

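In 16 of 298 groups of 4 arrays, 1 array lay so far from the nearest of the others that the gap, as a share of the group's range, exceeded Dixon's critical value for 4 samples; chance alone singles out about 1 in 20 such groups. Intact replicate 4 was lowest for Cobl (5.60), Mtmr3 (5.43) and Rpl5 (6.76). Intact replicate 3 was highest for Ecrg4 (7.51) and RT1-Ba (9.12). Intact replicate 1 was lowest for Cd68 (5.74) and Rarres2 (9.33), and intact replicate 2 highest for Snap91 (10.43) and Kif5c (7.19). Impaired replicate 4 was highest for Timp2, at 9.05 beside 8.59 to 8.64.

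In the mean log2 intensity of a list, intact replicate 4 was lowest for pericyte and smooth muscle genes (7.15), intact replicate 3 lowest for potassium channels (8.00) and highest for antioxidants (10.09), and intact replicate 1 highest for chromatin genes (8.86). Impaired replicate 4 was lowest for ependyma genes (8.40), and impaired replicate 3 highest for cytoskeletal genes (10.72). The groups of Ecrg4, Cobl, Mtmr3 and Timp2 did not overlap, so leaving out 1 array could not turn their directions. RT1-Ba, whose groups overlapped, ran from -0.51 to -0.24 when 1 of the 8 arrays was left out.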

How the results depend on the processing

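In CA1 limma called 0 probes under all 20 alternatives except without impaired replicate 3, where it called 1 (Ttr); leaving out 1 array gave 0 to 1 calls. At an unadjusted p under 0.05 there were 668 probes, 28 with the adults as another group, 551 with the adults except replicate 4, 1278 of 22523 without a detection filter, 437 without impaired replicate 4 and 1121 without impaired replicate 3. With the replicate number as a block, limma called 0 and 498 lay under 0.05 (smallest adjusted p 0.827). The block gave 0 calls in both differences between regions, and no pairing by these numbers was seen. CA1 against the dentate gyrus had 528 calls with array weights and 0 otherwise; at an unadjusted p under 0.05 its 1554 probes became 2589 with array weights, 2425 without a filter, 256 with the adults, 865 without impaired replicate 4 and 653 without both replicates 4. For CA1 against CA3 the 149 probes became 328 with array weights, 794 without a filter, 11 with the adults, 93 with median centring, 90 without intact replicate 4 and 242 without impaired replicate 3, with 0 called throughout. The 104 genes were named for a small p in these same data or after their values were seen, which favours a kept direction. Of them 99 kept it. The others were near 0. Gfap ran from -0.108 to 0.026 over the left-out arrays, Hba-a2 from -0.172 to 0.081, Hbb from -0.194 to 0.071, Slc4a5 from -0.099 to 0.123 and Wfs1 from -0.0036 to 0.19. With array weights Hba-a2 was at 0.067, Hbb 0.034, Slc4a5 0.066 and Wfs1 -0.045, and without both replicates 4 they were at 0.167, 0.175, 0.095 and -0.089. Slc4a5 was at 0.126 in the processed values and 0.051 with median centring. Of 42 list medians 24 kept their direction under every alternative, and 18 crossed 0 under at least 1. The cause of these shifts was not tested.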

Other observations

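Among lists not yet described, clock genes were higher in impaired CA1 in 10 of 13 cases (median 0.06), with Cry2, a repressor of the clock, at 0.33 ± 0.15 and detected on 1 of 4 intact and 3 of 4 impaired arrays. Translation factors (27 genes, median 0.02, 0.002 to 0.030 when 1 array was left out) and chromatin genes (28 genes, median 0.03, -0.005 to 0.040) had 0 members at an unadjusted p under 0.05 by limma. Glycolysis genes had a median of 0.04 over 15 genes, which was 0.00 in the processed values and without intact replicate 4, and markers of neighbouring cortex and thalamus a median of 0.01 over 8 genes, which ran from -0.074 without intact replicate 4 to 0.081 without impaired replicate 4. Dentate and CA3 marker genes varied between arrays within a group: C1ql2, a synaptic protein of granule neurons, ran from 6.00 to 7.18 in intact and from 5.61 to 6.84 in impaired arrays, and Cpne4, a copine of CA3 neurons, from 7.55 to 8.60 and from 7.37 to 8.23. Lrrtm4, a synaptic adhesion protein of granule neurons, ran from 5.56 to 6.58 and from 6.14 to 6.87.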
